A study of Mus musculus with 2 samples.

Results

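The 10 genes described here encode the mouse Notch receptors Notch1 to Notch4, their ligands Jag1, Jag2, Dll1, Dll3 and Dll4, and Lfng, a sugar-transferring enzyme that tunes the response of a receptor to its ligands. Every probe set that the platform annotation gives to exactly 1 of these symbols was taken and read on its own, which gave 20 of the 45037 non-control probe sets on the array, with all 10 genes represented. The RNA came from whole limb buds of embryos of the C57BL/6 strain at stage E10.5 of gestation, with 1 array for wild-type embryos and 1 for Bhlha9 knockout embryos. The Bhlha9 protein is a transcription factor of the basic helix-loop-helix class that the developing limb expresses. The comparison asks how limb bud transcripts differ when that gene is lost. The number of embryos behind each RNA, the deleted part of Bhlha9 and the shares of forelimb and hindlimb are not stated in the labels.

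Notch receptors sit in the cell membrane and are activated by ligands on a neighbouring cell. Binding leads to cleavage by ADAM proteases and then by gamma-secretase, which frees the intracellular part of the receptor to enter the nucleus, join the DNA-binding protein Rbpj and switch on targets such as the Hes and Hey genes. In the limb bud the pathway is known from the apical ectodermal ridge, where Jag2 and Notch1 are expressed. Mice without functional Jag2 have fused digits. The same receptors and ligands also act in blood vessels, somites, muscle precursors and the neural tube.

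With a single array per genotype, the difference has no replicate check, no p-value was computed, and "higher" and "lower" compare these 2 arrays only. Signals are the deposited MAS 5.0 intensities in arbitrary units, and the 2% trimmed mean was 500.0 on both arrays. A probe set was treated as not detected under a floor at the 40th percentile of its array, 41.2 for wild-type and 41.8 for knockout. Log2 ratios are given as knockout minus wild-type. If a probe set lay under the floor on 1 array, its ratio is only a bound and is printed with "at least". Measurement error was read from 5440 genes with at least 2 probe sets above the floor on both arrays: the disagreement of their brightest pair corresponds to a robust SD of 0.28 for 1 log2 ratio, and to 0.44 among the 637 pairs with mean signals up to 250. It does not include any variation from embryo to embryo or from one dissection to the next. The Bhlha9 probe set read 7.87 and 1.70, under the floor on both arrays, and so checked neither label.

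Of the 20 probe sets, 13 were above the floor on both arrays, 2 on the wild-type array only, 1 on the knockout array only and 4 on neither. Those 13 covered every gene except Lfng. Detection on 1 array or more was met by 16. Of these, 1 reached 2-fold in the higher direction (Dll3) and 0 in the lower, where the background among 29201 probe sets selected in the same way was 3.22% higher and 4.51% lower. At a threshold of 1.5-fold the counts were 3 higher and 4 lower, with a background of 10.2% and 15.6%. The median log2 ratio of the 16 was -0.06, against -0.05 for all such probe sets. Over the 13 measured on both arrays the median was 0.15, against -0.06 for all 24843 such probe sets, so the family's median changes sign with the way its probe sets are selected. Of these 13 ratios, 7 were positive and 6 negative, and they ran from -0.67 to 1.40. Of them, 5 were above and 5 below zero by more than 0.28. The share of all probe sets past 0.28 was not computed, so these counts give nothing particular to the family. Among all 7177 probe sets above the floor on both arrays with mean signals of 60 to 200, the log2 ratios had a robust SD of 0.62.

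**Figure D1:**
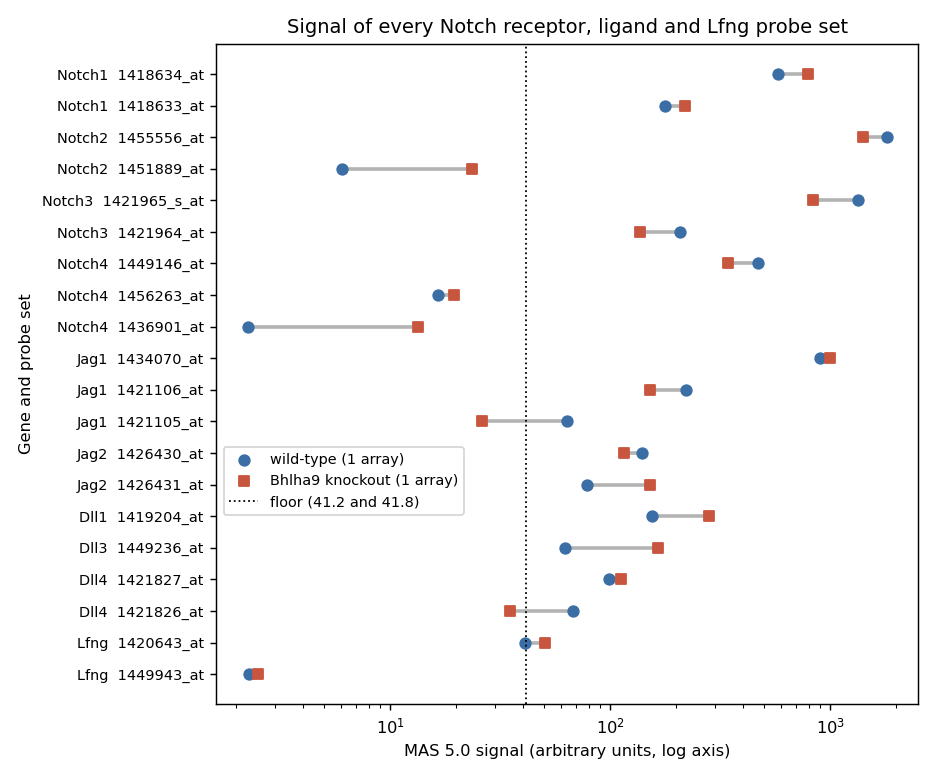
MAS 5.0 signal of all 20 probe sets on the wild-type array (circles) and the knockout array (squares), on a log axis, with the floor as a dotted line. The 4 probe sets under the floor on both arrays reached at most 23.5, and the Dll3 pair, at 62.6 and 164.8, is the widest separation among probe sets above the floor on both arrays.

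The receptors split, with Notch1 higher and Notch2, Notch3 and Notch4 lower on the knockout array. Notch1, a receptor of the ridge, somites and neural progenitors, read 581 in wild-type and 795 in knockout tissue by its brighter probe set (1418634_at). Its other probe set (1418633_at) read 177 and 220. These are log2 ratios of 0.45 and 0.31, both positive and both a little beyond the error of 0.28, although the dimmer one lies within the 0.44 found at low signal.

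Notch2, a broadly expressed receptor, had the brightest reading of its gene in 1455556_at, at 1804 and 1415, a log2 ratio of -0.35. A further Notch2 probe set, 1451889_at, stayed under the floor at 6.02 and 23.5 and gave no ratio. Notch3, known from the smooth muscle cells and pericytes around vessels, read 1334 and 837 by 1421965_s_at. A suffix of this kind marks probes that may match more than 1 transcript. Its other probe set, 1421964_at, read 208 and 136. The log2 ratios were -0.67 and -0.61, so the pair differed by only 0.06, the closest match among the members with several detected probe sets. Notch4, a receptor of vascular endothelium, read 471 and 345 by 1449146_at, a log2 ratio of -0.45, while its other probe sets, at 16.5 and 19.6 for 1456263_at and at 2.26 and 13.4 for 1436901_at, were under the floor. In all, the receptors had 2 positive and 4 negative measured ratios, and the median of these was -0.40. The signs of these 4 receptors by their brightest probe set were the same under every scaling and floor tried.

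Vascular markers were read beside Notch3 and Notch4, because those receptors mark vessels. All 13 endothelial genes were detected; 2 passed 2-fold downward and 0 upward, and their median log2 ratio was -0.41. The background for genes, each by its brightest probe set, was 2.65% lower and 4.15% higher of 13088. Kdr, the main VEGF receptor, read 1326 and 625, and Tie1 read 112 and 29.4, at least 2.69-fold lower. Of the 12 endothelial genes measured on both arrays, 10 were lower and 2 higher, Emcn at 0.44 and Sox17 at 0.28. The summed signal of the endothelial list was 8210 in wild-type and 6831 in knockout tissue, and that of the arterial list 8481 and 6322. Of 5 detected arterial genes, 1 passed 2-fold downward, Unc5b at -1.18, and 0 upward. Gja4 (-0.77) and Efnb2 (-0.65) were lower too, while Nrp1 was at -0.06 and Cxcr4 higher at 0.87. Gja5 was under the floor on both arrays. In the mural list, which holds markers of smooth muscle and pericytes, 2 of 7 genes passed 2-fold downward, Acta2 (log2 ratio -1.85) and Tagln (-1.25), and 0 upward. Pdgfrb was lower as well, at -0.87, whereas Rgs5 (0.75), Des (0.38) and Abcc9 (0.23) were higher, and Cspg4 was detected in knockout tissue alone. The list ran both ways, with a median of 0.23 over its 7 detected genes and of -0.32 over the 6 measured on both arrays. Its summed signal of 12695 and 5568 was carried mainly by Acta2, which read 6711 and 1858, and Kcnj8 was under the floor on both arrays. The part of vessel content in the Notch3 and Notch4 readings was not tested. In RNA from a whole tissue, fewer cells of a type and less RNA per cell cannot be told apart.

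**Figure D2:**
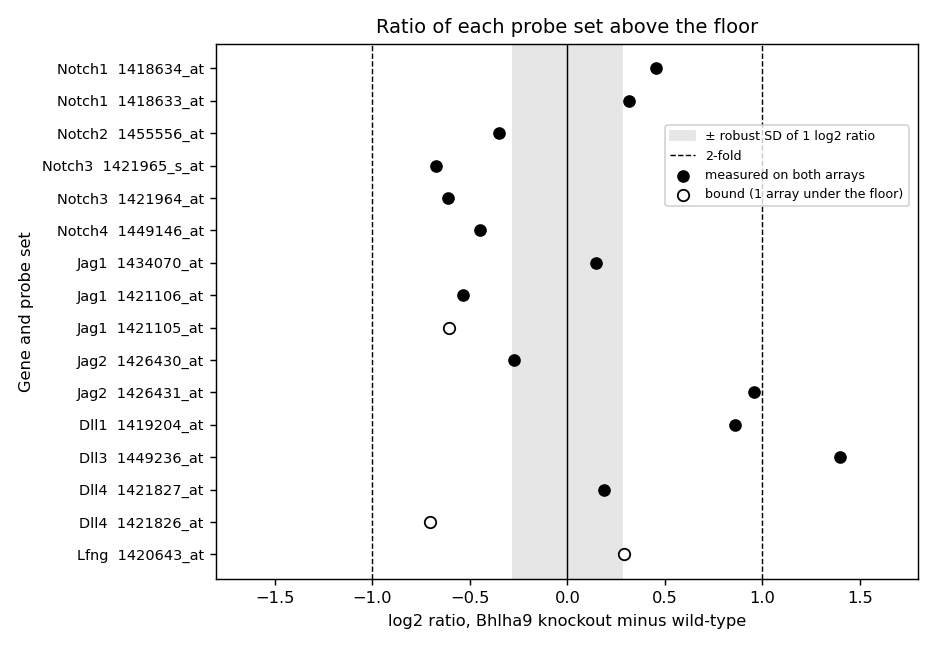
Log2 ratio, knockout minus wild-type, of the 16 probe sets detected on 1 array or more; filled points were measured on both arrays, open points are bounds, the grey band is the robust SD of 0.28 for 1 ratio and dashed lines mark 2-fold. Only Dll3, at 1.40, lies beyond the dashed lines, while the probe sets of Jag1, Jag2 and Dll4 fall on both sides of zero.

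The Delta-like ligands Dll1 and Dll3 had higher signals on the knockout array. Dll3, a divergent member of the family that is held largely inside the cell, dampens Notch signalling rather than activating it on neighbouring cells, and is known from the presomitic mesoderm and new neurons. Its single probe set, 1449236_at, read 62.6 in wild-type tissue, 1.52 times the floor, and 164.8 in knockout tissue. The log2 ratio was 1.40, or 2.63-fold. The wild-type reading is near the floor. Among the 7177 probe sets above the floor on both arrays with mean signals of 60 to 200, 4.75% passed 2-fold upward and 7.75% downward. The ratio was 1.06 with a pseudocount of 32 in place of the floor, 1.44 after median centring and 1.47 after quantile normalization. With the floor raised to the 60th percentile the wild-type reading fell under it, the bound was a log2 ratio of -0.03, and the family's only call past 2-fold was lost.

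Dll1, an activating ligand of somites, muscle precursors and neural progenitors, read 155 and 281 by its single probe set, 1419204_at. This is a log2 ratio of 0.86 or 1.82-fold, short of 2-fold on the deposited scale. It stayed just under 2-fold after quantile normalization and came to 1.01 after loess, just past it. Dll1 and Dll3 were each read by 1 probe set, so neither reading could be set against another of the same gene.

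Set against all probe sets of like signal, these ligands were the members that stood farthest out. The probe sets above the floor on both arrays were divided into 20 equal groups by mean signal. In each, the span from the 5th to the 95th percentile of the log2 ratio was taken as a description of the spread between these arrays. Of the 13 members, 2 lay above their span and 11 inside it. By construction, about 5% of all probe sets lie above the 95th percentile of their group. Dll3 lay above a span of -1.21 to 1.11, and Dll1 above a span of -1.17 to 0.75. The mean signal of Dll1, 217.9, lay at the lower edge of its group, which began at 216.7. In the group just below, the 95th percentile was 0.8609, and Dll1, at 0.8608, would lie inside it. Its place above the span thus depends on where the groups are divided. The brighter Notch3 probe set was nearest to the lower edge, at -0.67 against -0.74.

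**Figure D3:**
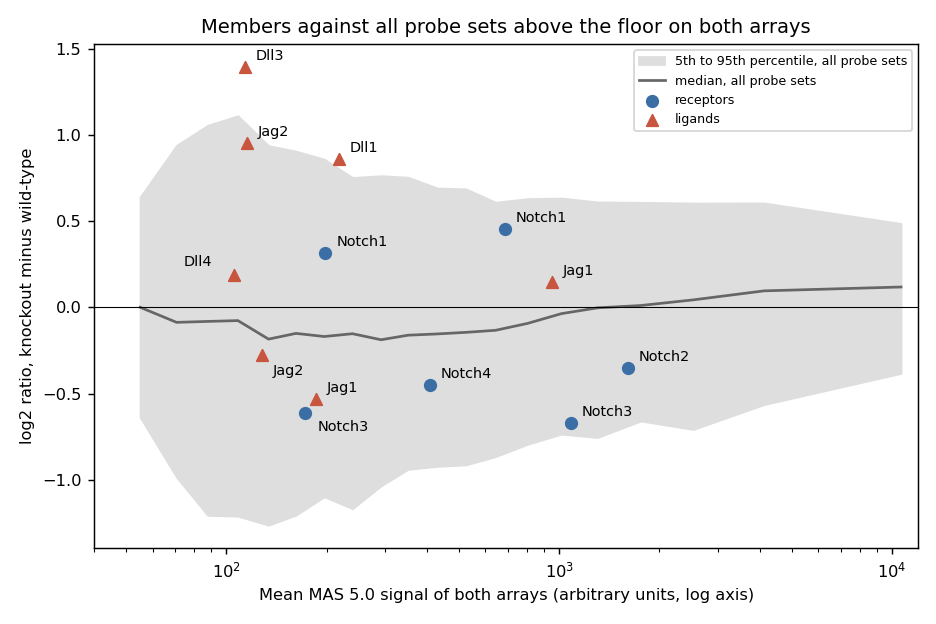
Log2 ratio against mean signal (log axis) for the 13 member probe sets above the floor on both arrays, receptors as circles and ligands as triangles, over the 5th to 95th percentile (grey) and median (line) of all 24843 such probe sets. Dll3 and Dll1 lie above the grey span and the other 11 points inside it, although the place of Dll1 depends on where the groups are divided.

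Dll4 and the Jagged ligands gave no single direction. Dll4, the ligand of arterial and sprouting endothelium, read 98.5 and 112 by 1421827_at, a log2 ratio of 0.19 and within the error. By 1421826_at it read 68.0 in wild-type tissue and 35.0, under the floor, in knockout tissue, which makes it at least 1.63-fold lower there. Jag1, expressed in limb mesenchyme and vessels, read 903 and 1001 by its brightest probe set, 1434070_at, a log2 ratio of 0.15 and within the error. It read 220 and 152 by 1421106_at, a log2 ratio of -0.53, and by 1421105_at it read 63.6 in wild-type tissue and 26.0, under the floor, in knockout tissue, at least 1.52-fold lower. For Jag1 the brightest probe set thus opposed the other 2.

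Jag2, the ligand tied to digit separation, was the least settled member. Its probe set 1426430_at read 140 and 116, a log2 ratio of -0.27 and within the error. The other, 1426431_at, read 78.5 and 152, a log2 ratio of 0.96 or 1.94-fold. The 2 ratios differ by 1.23, against a robust SD of 0.62 for the difference of a pair at low signal. Under quantile and loess normalization the second came to 1.04 and 1.07, past 2-fold, while the first stayed negative. No direction can be given for Jag2 from these arrays. Over the 5 ligands, the 7 ratios measured on both arrays were positive in 5 cases and negative in 2, with a median of 0.19. Of the 5 members with several probe sets above the floor, Notch1 and Notch3 kept 1 sign, and Jag1, Jag2 and Dll4 did not. Over all 6270 genes with several such probe sets, 44.6% had ratios of both signs.

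Lfng, the Fringe enzyme that adds N-acetylglucosamine to Notch and favours signalling by Delta over Jagged ligands, was close to the floor. It read 41.1 and 50.4 by 1420643_at, with the wild-type reading just under the floor, so it was at least 1.22-fold higher. By 1449943_at it read 2.28 and 2.50, far under it. These readings are too near the floor to give the size of any difference.

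Marker lists of the tissues that are known to use Dll1, Dll3 and Lfng had higher summed signals on the knockout array. Over all 13088 genes detected on 1 array or more, 4.15% passed 2-fold upward and 2.65% downward. In the neural tube list 11 genes were detected, 5 of which passed 2-fold upward and 0 downward. Of the 11, 8 were detected in knockout tissue alone, and such genes can have no negative ratio. The progenitor factor Sox2 read 136 and 890 and the glial progenitor gene Fabp7 56.2 and 952, while Nes was at -0.61. The summed signal of this list was 741 and 3011. Of 8 presomitic and somite genes, 1 passed 2-fold upward, the posterior somite gene Uncx at a log2 ratio of 1.14, and 0 downward. The sum was 2711 and 3553. The early presomitic genes Tbx6, Msgn1 and Ripply2 were under the floor on both arrays. Of 6 muscle progenitor genes, 3 passed 2-fold upward and 0 downward, among them Myog at 2.05 and Myf5 at 1.29, and the sum was 1469 and 2543. Lbx1, a gene of migrating limb muscle precursors in this list, ran the other way, at -0.80 by its brightest probe set and -1.09 by the other. Pax3 stands in both the somite and the muscle list, so their sums are not separate. It read 490 and 744 by its brightest probe set, a log2 ratio of 0.60, but its other probe sets gave -0.29 and 0.09. The part of these tissues in the Dll1 and Dll3 readings was not tested.

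Beside Notch1 and Jag2, which the ridge expresses, the ectoderm and ridge list had 6 of 12 genes past 2-fold upward and 0 downward, with sums of 6055 and 10058. The background for genes in this and the next lists was again 4.15% higher and 2.65% lower. Cdh1 (E-cadherin) was at a log2 ratio of 1.72 and Sp8, a ridge transcription factor, at 1.54, while Fgf8, the main ridge signal, was at 0.15. Trp63, among the 6, was at 1.46 by its brightest probe set but at 0.01 and -0.20 by its other detected ones. Wnt7a gave 0.83 and -0.43 by different probe sets, and Krt8 was at -0.11. In the limb mesenchyme list 4 of 10 genes passed 2-fold downward and 0 upward, and the sums were 32404 and 19445. Those past 2-fold were Msx1, lowest at -1.37, Lhx9 (-1.34), Tbx4 (-1.23) and Pitx1 (-1.07), while Hoxd13 was at -0.03. Embryonic liver genes, which a limb bud is not expected to hold, passed 2-fold upward in 7 of 7 cases, and their sum was 126 and 31471.5. The primitive red cell list had 0 of 5 genes past 2-fold. Markers of several tissues thus differed at once between the arrays, and their part in the Notch1 and Jag2 readings was not tested.

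**Figure D4:**
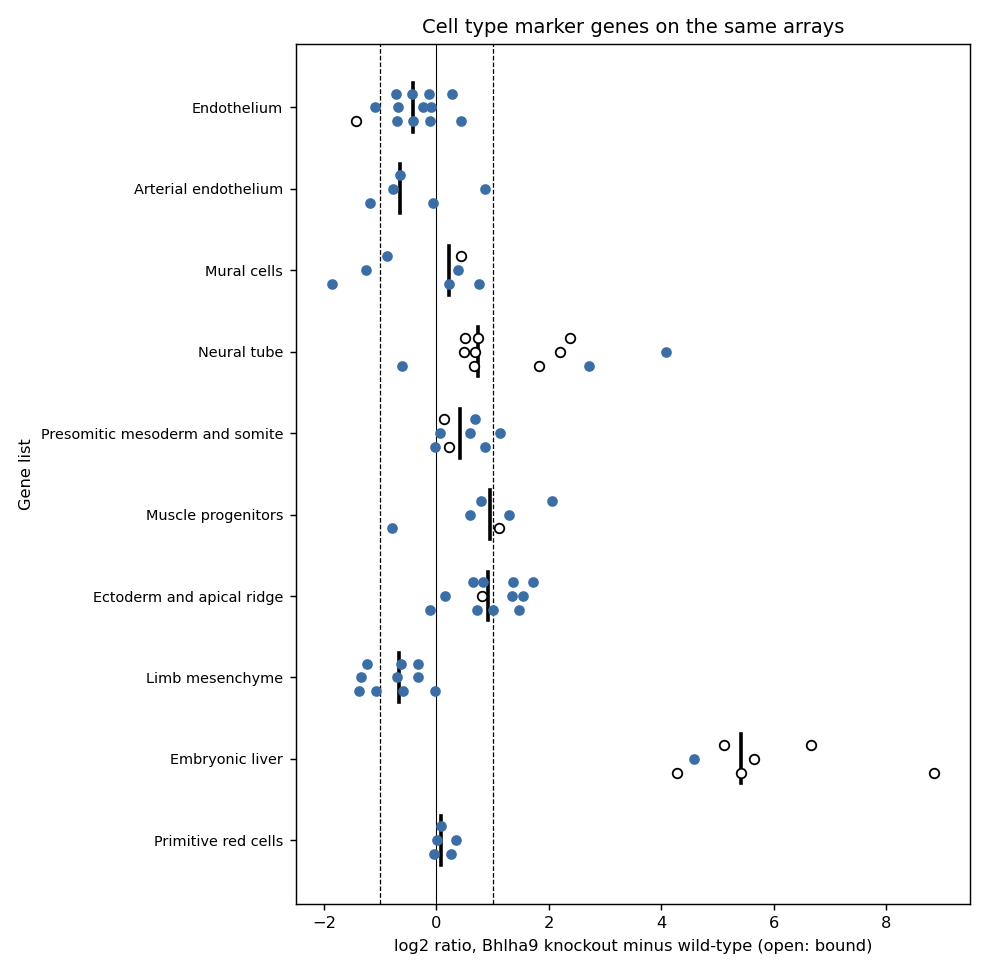
Log2 ratio of each marker gene by its brightest probe set, in 10 lists; filled points were measured on both arrays, open points are bounds, black ticks are list medians and dashed lines mark 2-fold. Liver, neural tube, muscle and ectoderm markers lie mostly to the right of zero, and limb mesenchyme and endothelial markers mostly to the left, with medians of -0.67 and -0.41 for the last pair.

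Promoter windows are shown for Dll3 and Dll1, the members farthest from zero on the positive side with a single probe set each, and for Lfng, because it was the member whose window held the Rbpj core motif. They come from RefSeq on GRCm38.p6, where all 10 members were matched, with 11 windows because Dll1 has 2 annotated starts. The motifs searched were TGGGAA, the core of the site bound by Rbpj, on both strands, and CANNTG, the E-box bound by basic helix-loop-helix factors, which reads alike on both strands. Each line runs 5′ to 3′ on the gene's own strand from 250 bases before the annotated start through the first 10 transcribed bases, with matches to either motif in capitals.
Dll3, chr7:28301776-28302035, minus strand: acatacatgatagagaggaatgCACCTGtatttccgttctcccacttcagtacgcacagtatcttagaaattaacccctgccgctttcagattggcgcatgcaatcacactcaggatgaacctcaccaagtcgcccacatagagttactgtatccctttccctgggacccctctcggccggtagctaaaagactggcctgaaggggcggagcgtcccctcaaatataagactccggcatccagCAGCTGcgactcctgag
Dll1, chr17:15375814-15376073, minus strand: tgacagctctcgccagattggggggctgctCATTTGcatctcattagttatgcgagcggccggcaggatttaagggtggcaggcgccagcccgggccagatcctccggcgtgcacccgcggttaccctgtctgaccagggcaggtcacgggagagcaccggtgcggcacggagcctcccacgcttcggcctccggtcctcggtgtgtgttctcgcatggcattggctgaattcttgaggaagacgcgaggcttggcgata
Dll1 upstream start, chr17:15376923-15377182, minus strand: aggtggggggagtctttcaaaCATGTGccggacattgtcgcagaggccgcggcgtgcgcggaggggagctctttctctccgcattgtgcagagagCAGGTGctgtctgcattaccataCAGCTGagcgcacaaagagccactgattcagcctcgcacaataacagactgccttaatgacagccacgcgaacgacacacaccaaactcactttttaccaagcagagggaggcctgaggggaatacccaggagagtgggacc
Lfng, chr5:140607091-140607350, plus strand: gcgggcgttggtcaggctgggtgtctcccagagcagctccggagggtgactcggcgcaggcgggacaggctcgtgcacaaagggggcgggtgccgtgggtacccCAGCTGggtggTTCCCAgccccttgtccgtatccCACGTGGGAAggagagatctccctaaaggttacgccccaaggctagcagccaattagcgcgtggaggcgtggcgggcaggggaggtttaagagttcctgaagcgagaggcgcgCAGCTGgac

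The Dll3 window held 2 E-boxes, beginning 228 and 7 bases before the start, and no match to TGGGAA. The downstream Dll1 start had 1 E-box and the upstream start 3. In Lfng both strands of TGGGAA were matched, beginning 135 and 108 bases before the start, and the second overlaps a CACGTG E-box that begins 112 bases before it. Counted over windows of the full 300 bases, TGGGAA was present in 1 of 11 member windows, against 25.6% of all 32851 windows in the table, and CANNTG in 6 of 11, against 72.3%. The median GC content was 63.7% for members and 52.7% for all windows. Notch1, Notch2, Notch3, Jag2 and Dll4 had neither motif in their window. A match is a description of the letters and not a bound site.

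Targets of Notch signalling also ran in both directions. Of 9 target genes measured, 6 were detected. Of these, 2 passed 2-fold upward and 0 downward, where the background for genes was 4.15% higher and 2.65% lower of 13088. The median log2 ratio of the 6 was -0.01, against 0.01 for all genes. With the floor at the 20th percentile this median was -0.45, and with the floor at the 60th percentile 0 targets passed 2-fold in either direction. Hes5, a target best known from neural progenitors, read 25.5 and 108 by its brighter probe set, at least 2.62-fold higher. Its other probe set read 28.2 and 96.4, at least 2.34-fold higher. Hey2, a target of arteries, heart and somites, read 107 and 274, a log2 ratio of 1.35, by its single probe set. Both Hes5 probe sets were thus undetected in wild-type tissue and could have no negative ratio, whereas Hey2 was detected on both arrays.

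Hey1, a target expressed in vessels and mesenchyme, ran the other way at 997 and 603, a log2 ratio of -0.73. Hes1, the most widely expressed target, read 642 and 471, a log2 ratio of -0.45. Nrarp, a feedback inhibitor that binds the Notch intracellular domain, read 525 and 671, a log2 ratio of 0.36, and 81.6 and 97.1 by its other probe set. Heyl, a target of vessels and muscle, was detected in wild-type tissue alone by 2 probe sets, which read 54.0 and 39.4 and 46.6 and 15.5, at least 1.29-fold and 1.12-fold lower. Hes2, Hes3 and the somite clock gene Hes7 were under the floor on both arrays. Hes1 and Hey1 were thus lower, and Hes5, Hey2 and Nrarp higher, on the knockout array. Heyl was lower too, but its readings are too near the floor to give the size of any difference.

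The windows of Hes5 and Hey2, the targets past 2-fold, are given in the same form because both held the Rbpj core on both strands. RefSeq windows were matched for 4 of the 9 targets, Hes5, Hes7, Hey2 and Nrarp. The targets that were lower on the knockout array, Hes1, Hey1 and Heyl, had no matched window.
Hes5, chr4:154960673-154960932, plus strand: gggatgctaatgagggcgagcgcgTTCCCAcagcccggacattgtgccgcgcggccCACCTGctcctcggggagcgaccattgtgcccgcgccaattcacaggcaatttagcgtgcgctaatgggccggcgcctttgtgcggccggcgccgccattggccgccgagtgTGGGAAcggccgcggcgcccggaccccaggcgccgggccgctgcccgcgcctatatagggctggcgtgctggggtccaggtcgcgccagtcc
Hey2, chr10:30842774-30843033, minus strand: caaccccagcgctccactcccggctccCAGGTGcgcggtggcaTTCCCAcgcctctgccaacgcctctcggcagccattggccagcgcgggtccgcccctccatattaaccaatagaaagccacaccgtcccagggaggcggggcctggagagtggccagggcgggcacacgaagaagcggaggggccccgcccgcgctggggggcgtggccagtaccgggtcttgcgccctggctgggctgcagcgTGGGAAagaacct
In Hes5 the matches to TGGGAA begin 226 and 82 bases before the start. In Hey2 they begin 207 and 3 bases before it. Hes7 held 1 match and Nrarp none, so 3 of 4 target windows had the core, against 1 of 11 member windows and 25.6% of all windows. With no window for a lower target, the core cannot be set against the direction of the targets.

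**Figure D5:**
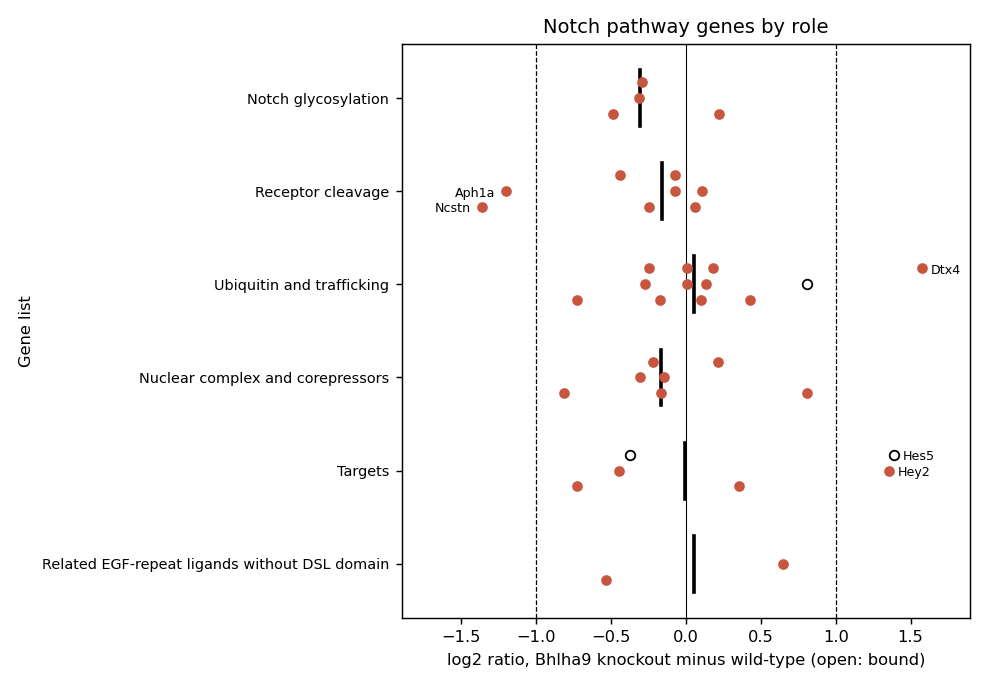
Log2 ratio of each further Notch pathway gene by its brightest probe set, grouped by role; filled points were measured on both arrays, open points are bounds, black ticks are list medians and dashed lines mark 2-fold. Dtx4, Hes5 and Hey2 lie to the right of the dashed lines and Ncstn and Aph1a to the left, and the medians run from -0.30 to 0.05.

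The rest of the pathway was read from 48 listed genes, targets included, of which 44 had a probe set of their own and 39 were detected on 1 array or more. Of these, 3 passed 2-fold upward and 2 downward, with a median log2 ratio of -0.15. Of the 36 measured on both arrays, 15 ratios were positive and 21 negative. The share past 2-fold in each direction stands beside the 4.15% and 2.65% given above for all genes, and with so few calls nothing particular to the pathway can be read from it.

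Among enzymes that modify Notch sugars, 0 of 4 passed 2-fold. Pofut1, which adds the O-fucose that Fringe enzymes extend, was at -0.49, read 1066 and 761 by its brightest probe set. The other Fringe genes, Mfng and Rfng, were at -0.31 and -0.29, from 195 to 157 and from 567 to 462. Poglut1, which adds O-glucose, was at 0.22.

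Among genes of receptor cleavage, 2 of 8 passed 2-fold downward and 0 upward. They were Ncstn and Aph1a, both subunits of gamma-secretase. Aph1a read 1615 and 704, a log2 ratio of -1.20, by a probe set that may match several transcripts, and its other 2 gave -0.46 and -0.25. Ncstn read 146 and 56.7, a log2 ratio of -1.37, but 8.68 and 92.7 by its other probe set, at least 2.25-fold higher, so no direction can be given for it. With the mean over probe sets, 0 of the 8 passed 2-fold downward. The presenilin Psen2 was at -0.44 and the ADAM protease Adam17 at -0.24.

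Genes of ubiquitin transfer and trafficking had 1 of 12 past 2-fold upward and 0 downward. Dtx4, a Deltex ubiquitin ligase, read 269 and 801, a log2 ratio of 1.58, the largest of the pathway lists among genes measured on both arrays by their brightest probe set. Its other probe set read 18.7 and 64.4, at least 1.56-fold higher. Mib2, a ligase that promotes ligand uptake, was at -0.73, the ligase Itch at 0.43 and Dtx3 at -0.27. Mib1, the main ligase for Notch ligands, was named after its value was seen and read 2600 and 2610.

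In the nuclear complex and its corepressors, 0 of 7 genes passed 2-fold. Spen, a corepressor partner of Rbpj, was at -0.82, from 270 to 153, and the acetyltransferase Kat2b at 0.81, from 219 to 383. The coactivators Maml1 and Ep300 were at -0.31 and -0.22, but another detected probe set of Maml1 gave 0.29. Rbpj itself, named after its value was seen, read 1803 and 1626 by its brightest probe set, a log2 ratio of -0.15 and within the error. Its other probe sets gave 0.31 and -0.18, so the gene has ratios of both signs. Of the related EGF-repeat ligands that lack the DSL domain, Dlk1 was at 0.65, from 1497 to 2342, and Dlk2 at -0.54, with Dner under the floor on both arrays.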

How the data were processed

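Total RNA from whole limb buds (200 ng) was labelled with a 3′ IVT kit and hybridised to Affymetrix Mouse Genome 430 2.0 arrays, per the labels' protocols. The deposited values are MAS 5.0 signal intensities on a linear scale, 1 per probe set, per the series' design text. MAS 5.0 corrects each probe for mismatch signal and scales arrays separately, which leaves low signals noisy. Its settings are not stated in the labels.

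The 64 control probe sets were set aside. Symbols came from the platform annotation: 34945 probe sets had 1, 932 had several and 9160 had none, and the Entrez identifiers of all 20 member probe sets matched RefSeq (GRCm38.p6). Members were read by probe set, and other genes by the probe set with the highest mean signal. Named genes were all members, and of each list up to 4 genes with the largest ratios on both arrays plus every bound past 2-fold; marker lists are shown by fewer. Members and lists were chosen with earlier results of these data known. Likeness of pattern to other genes was not computed, since 2 arrays give 1 ratio per probe set. Alternatives were median centring, quantile and loess normalization, floors at the 20th and 60th percentile, a pseudocount of 32, a 1.5-fold threshold and other choices of probe set. The steps were tested on simulated data. The planted changes were larger than 2-fold and lay on bright probe sets only, so recovery at low signals such as that of Dll3 was not covered. Normalization used limma 3.58.1 in R 4.3.3, and all other steps Python 3.11.15, numpy 2.4.6, pandas 2.3.3 and matplotlib 3.10.9. The number of arrays limits the precision.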

Additional observations from a re-analysis of the deposited data

How the results depend on the processing

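With 1 array per genotype there is no replicate to leave out. No paired analysis was possible because each group is a single array. The count of member probe sets at least 2-fold higher, 1 on the deposited scale, was 2 after quantile normalization, 3 after loess, 3 at a 1.5-fold threshold and 2 with the floor at the 20th percentile. Raising the floor to the 60th percentile gave 0 and left 10 member probe sets. The count at least 2-fold lower, 0 on the deposited scale, was 1 when the floor was lowered to the 20th percentile and 4 at 1.5-fold. The median log2 ratio of the members ran from -0.19 under the higher floor to 0.19 under the lower one, so its sign is not settled. Taking the mean over probe sets turned the sign of Jag1 (-0.33), Jag2 (0.34) and Dll4 (-0.26). Read by their brightest probe set or this mean, Notch1, Notch2, Notch3, Notch4, Dll1 and Lfng kept their sign in every alternative with a value. Dimmer probe sets of Notch2 and Notch4, not detected in the main reading, ran the other way with the floor at the 20th percentile. For Notch2, 1451889_at gave a lower bound of 1.58 there, which is the added call past 2-fold upward. For Notch4, 1436901_at gave a lower bound of 0.78 and 1456263_at a log2 ratio of 0.25. Dll3 stayed positive except under the higher floor, where it was detected on the knockout array alone and its lower bound of -0.03 gives no direction. Jag2, Dll4 and Lfng were under that floor on both arrays. Signals near the floor, among them those of Dll3, Dll4, Jag2 and Lfng, are where these arrays resolve least.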

Other observations

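Several pathway genes gave opposite readings by different probe sets on the same 2 arrays. Of 22 pathway genes outside the 10 members with several probe sets above the floor, 9 had log2 ratios of both signs, a share of 40.9%, near the 44.6% of all genes with several such probe sets. The widest case was Ncstn, described above. Dlk2 read 95.1 and 65.5 by its brightest probe set and 16.5 and 93.8 by the other, at least 2.28-fold higher there. Itch had a log2 ratio of 0.43 by its brightest probe set, against -0.67, -0.53 and -0.36 by its other 3. These genes were chosen after their values were seen.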
